A study of Arabidopsis thaliana with 18 samples.

Results

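Roots of an Arabidopsis thaliana line that overexpresses CsUBC13, the UBC13 gene of cucumber, were compared with roots of the Col-0 wild type, averaged over plants kept with and without iron (Fe). The comparison takes every array of these genotypes, 12 of the 18 arrays of the series, and every probe set except 64 Affymetrix controls, which leaves 22746. The 4 groups, of 3 arrays each, were CsUBC13-OE with Fe, Col-0 with Fe, CsUBC13-OE without Fe and Col-0 without Fe. All plants were in the Col-0 background. Seedlings 10 days old were moved to ES medium that held FeEDTA (with Fe) or lacked it (without Fe), and roots were frozen 3 days later. The remaining 6 arrays are of ubc13A, a mutant labelled ubc13-/-, at the same supplies. They enter the fit only through the spread that all arrays share and are given beside some values below. The labels name 1 overexpressing genotype, and they give neither its promoter nor the number of lines behind it, so a difference belongs to this plant material and cannot be told apart from an effect of the insertion site. The transgene itself was not measured here. The series calls the 3 arrays of a group biological replicates.

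UBC13 is a ubiquitin-conjugating (E2) enzyme. Together with an inactive partner of the UEV family it links ubiquitin molecules through lysine 63, a kind of chain that marks proteins for endocytic sorting, signalling or DNA damage tolerance more than for breakdown by the proteasome. In Arabidopsis roots UBC13 is known for its part in forming branched root hairs when Fe is scarce. The enzyme acts on proteins, whereas the arrays measure transcripts.

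The arrays are labelled as roots, which the named probe sets can check only in small part. FACT, an acyltransferase of root suberin, had mean signals of 1032 and 1037 in CsUBC13-OE with and without Fe, against 1073 and 1133 in Col-0. It was the only member measured of 35 root markers. EXPA7, an expansin of root hair cells, averaged 663 and 726 in CsUBC13-OE, against 710 and 714 in Col-0. Transcripts of green tissue were present too: RCA, which activates Rubisco, averaged 1274 and 663 in CsUBC13-OE, against 1173 and 776 in Col-0. One array stood apart: CsUBC13-OE with Fe, replicate 2, correlated at 0.970 to 0.971 with the rest of its group, where other pairs within the groups of these 12 arrays reached 0.981 to 0.986. The lower quartile of its signals was 47.2, against 30.8 to 36.1 on the other 11 arrays.

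Differences are given as log2 of CsUBC13-OE over Col-0 on the scale log2(signal + 16), which understates the change of dim probe sets. A probe set was called when limma's p, adjusted by Benjamini-Hochberg over all 22746 probe sets, was under 0.05. In the average over supplies 4 probe sets were called, 0.0176% of those tested: 3 were higher in CsUBC13-OE (0.0132%) and 1 was lower (0.0044%). Of these, 2 name a gene, AT5G35940 and AT2G06140, and 2 are not named by the annotation used here, 260813_at and 252468_at. Before adjustment, 822 probe sets (3.61%) had a p under 0.05, 455 of them higher (2%) and 367 lower (1.61%). With Fe alone 3 probe sets were called (0.0132%), without Fe 3 (0.0132%), and in the difference between the supplies 1 (0.0044%). Without the array that stands apart, 5 were called in the average and 3 with Fe.

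**Figure D1:**
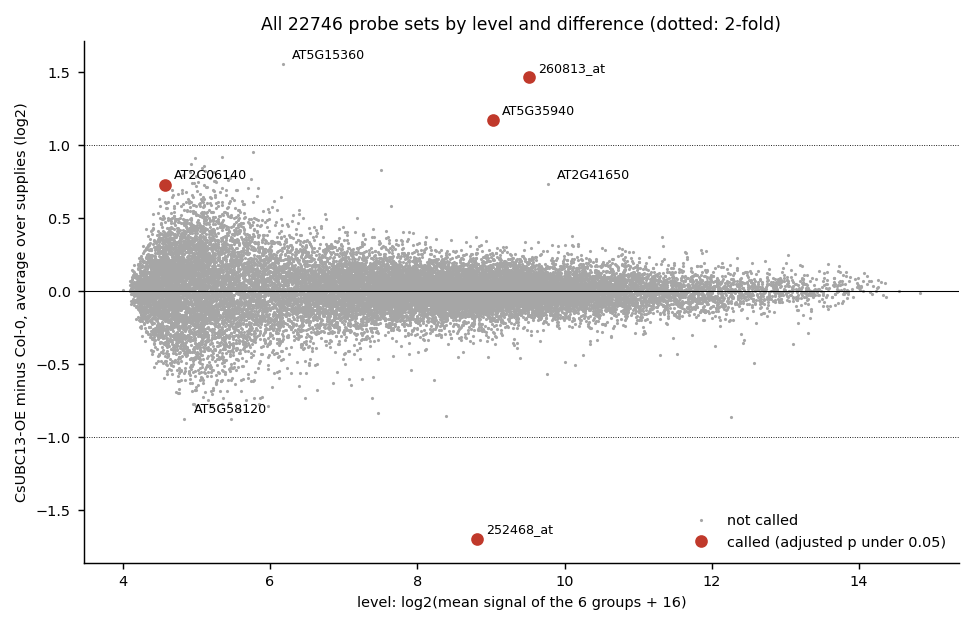
Each point is 1 of 22746 probe sets, by its level over all 6 groups (x axis, log2 of mean signal + 16) and by the log2 difference of CsUBC13-OE from Col-0 averaged over supplies (y axis). The 4 red points were called; 4 probe sets lie beyond the dotted lines of 2-fold, and the spread is widest among dim probe sets.

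The unnamed probe set 260813_at had the smallest p. On its 3 CsUBC13-OE arrays with Fe it gave signals of 851.6, 924.1 and 857.2, against 227.5, 247.1 and 287.9 in Col-0. Without Fe it gave 916.2, 1028.4 and 979.9 in CsUBC13-OE, against 416.6, 434.0 and 393.2 in Col-0. All 6 CsUBC13-OE arrays lay above all 6 Col-0 arrays. The average log2 difference was 1.47 (SE 0.084, 95% interval 1.29 to 1.65, adjusted p = 5.75e-07). It was 1.73 with Fe (adjusted p = 7.38e-06) and 1.2 without Fe (adjusted p = 0.000526). The ubc13A arrays were high as well, at 776.7, 951.8 and 729.1 with Fe and 873.9, 1023.9 and 1008.1 without Fe. Between CsUBC13-OE and ubc13A the average log2 difference of 260813_at was 0.06 (95% interval -0.12 to 0.24, adjusted p = 0.802), and between ubc13A and Col-0 it was 1.41. The last value and that of CsUBC13-OE share the Col-0 arrays.

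The unnamed probe set 252468_at was the 1 called lower in the average. It gave 187.5, 234.7 and 197.5 in CsUBC13-OE with Fe, against 651.9, 588.3 and 633.5 in Col-0. Without Fe it gave 173.4, 146.2 and 142.7 in CsUBC13-OE, against 612.0, 596.4 and 590.1 in Col-0. The highest CsUBC13-OE array was therefore well below the lowest Col-0 array at either supply. The average log2 difference was -1.69 (SE 0.13, 95% interval -1.97 to -1.42, adjusted p = 1.26e-05), with -1.53 with Fe (adjusted p = 0.0032) and -1.86 without Fe (adjusted p = 0.000526). In ubc13A the signals of 252468_at were 400.7, 795.3 and 603.6 with Fe and 446.3, 380.4 and 442.6 without Fe. CsUBC13-OE was lower than ubc13A too, by a log2 difference of -1.40 (adjusted p = 0.000354), while that of ubc13A from Col-0 was -0.30. The comparison with ubc13A uses the same CsUBC13-OE arrays as the one with Col-0, so it is no separate support. Neither 260813_at nor 252468_at lost its call, in the average or at a supply, when any 1 of the 12 arrays was left out.

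AT5G35940, which encodes a protein of the jacalin-related, mannose-binding lectin family, was the only named protein-coding gene called in the average. Lectins of this family bind sugars, and several are known from plant defence. In CsUBC13-OE with Fe its signals were 1008.6, 644.1 and 1077.9, against 400.4, 431.0 and 398.1 in Col-0. Without Fe they were 505.9, 820.1 and 905.1 in CsUBC13-OE, against 242.4, 358.7 and 289.2 in Col-0. All 6 CsUBC13-OE arrays were above all 6 Col-0 arrays, and the CsUBC13-OE arrays spread more widely than those of Col-0. The average log2 difference was 1.17 (SE 0.16, 95% interval 0.82 to 1.52, adjusted p = 0.0199). Neither supply passed alone: the difference was 1.09 with Fe (adjusted p = 0.747) and 1.26 without Fe (adjusted p = 0.279). In ubc13A the signals were 231.6 to 375.3, and CsUBC13-OE exceeded ubc13A by 1.25 (adjusted p = 0.00344). That comparison uses the same CsUBC13-OE arrays as the one with Col-0, so it is no separate support.

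The call of AT5G35940 depended on which arrays were fitted. Leaving out CsUBC13-OE with Fe replicate 2, CsUBC13-OE without Fe replicate 1 or Col-0 without Fe replicate 2 kept it (adjusted p = 0.00703, 0.00424 and 0.0253). Leaving out any of the other 9 arrays ended it, with adjusted p from 0.0537 to 0.0971 and differences from 1.09 to 1.19. The call also ended in a fit of the 12 arrays alone, where the adjusted p was 0.123 with no block and 0.366 with a block on the replicate number. With a pseudocount of 1 it was 0.0634, and against a 1.2-fold change 0.221. Measured members of the lectin family named JAL differed less. JAL22, JAL23, JAL33 and JAL34 had differences of -0.22, -0.17, -0.08 and 0.07, none past the test.

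**Figure D2:**
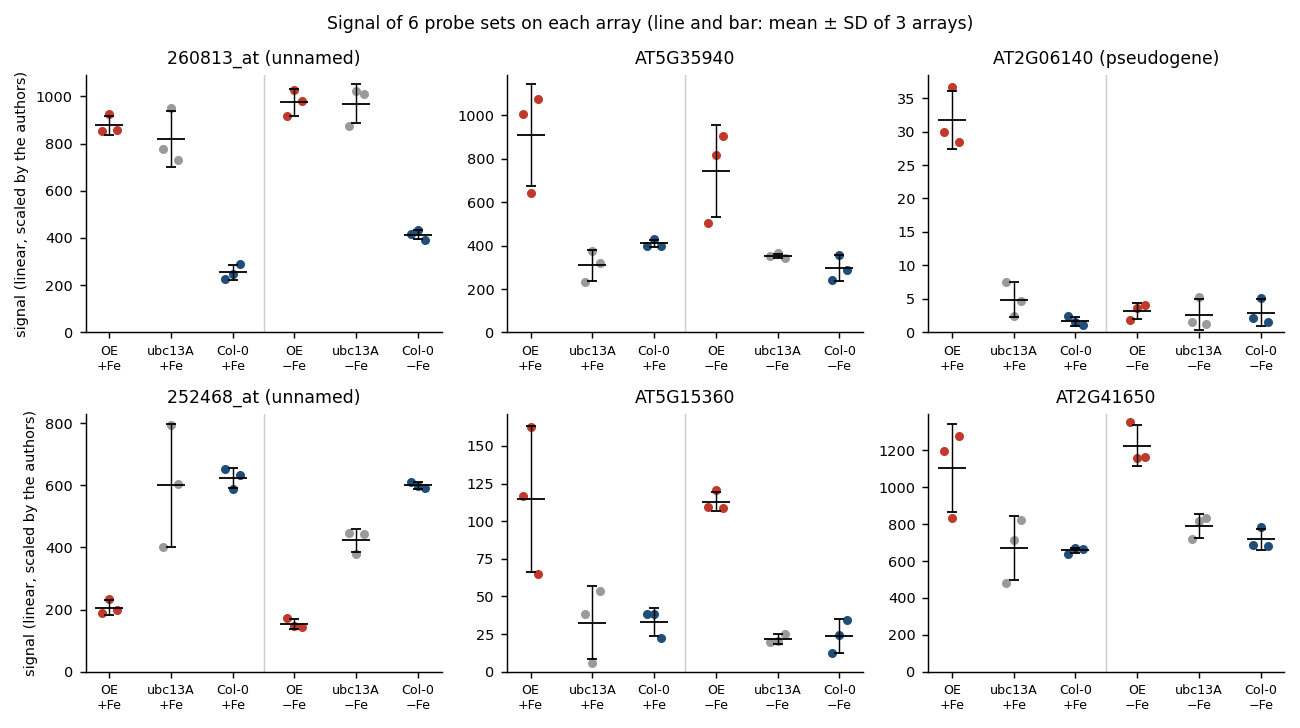
Signals on each array (points, linear scale of the authors) with mean and SD of 3 arrays (line and bar) for 6 probe sets in CsUBC13-OE, ubc13A and Col-0 roots, with Fe on the left of each panel and without Fe on the right. 260813_at is high in CsUBC13-OE and in ubc13A, 252468_at is lowest in CsUBC13-OE, and AT2G06140 stands above 28 only in CsUBC13-OE with Fe.

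AT2G06140, annotated as a pseudogene, was called in the average through 1 supply. Its signals were 30.0, 36.7 and 28.5 in CsUBC13-OE with Fe, against 2.4, 1.5 and 1.1 in Col-0. Without Fe they were 1.9, 3.7 and 4.1 in CsUBC13-OE, against 2.1, 5.2 and 1.5 in Col-0. The groups were apart with Fe and overlapped without it. The log2 difference was 1.43 with Fe (adjusted p = 9.4e-05) and 0.03 without Fe, which gives 0.73 in the average (SE 0.088, adjusted p = 0.00446) and -1.40 between the supplies (adjusted p = 0.021). The call between the supplies ended in the 12 arrays alone (adjusted p = 0.0755, and 0.171 with a block on the replicate number). It also ended when any array but Col-0 without Fe replicate 3 was left out (adjusted p 0.0524 to 0.113). All its signals are near the low end of the arrays, and no detection call was used here. For AT2G06140 the average lost its call with a pseudocount of 1 (adjusted p = 0.189) or 64 (adjusted p = 0.279) in place of 16, with trended, robust moderation (adjusted p = 0.981) and against a 1.2-fold change (adjusted p = 0.264). AT2G06140 lies among 25 annotated genes on either side, of which 18 were measured by 19 probe sets. Their average differences ran from -0.43 to 0.32, and none had an unadjusted p under 0.05. Among the neighbours of AT5G35940 on either side 12 were measured, with differences from -0.37 to 0.39, and 1 had an unadjusted p under 0.05 (AT5G35830). Over all probe sets 3.61% had an unadjusted p under 0.05, so counts among so few neighbours say little about them.

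Without Fe a further gene was called, AT1G09360, of the family of invertase and pectin methylesterase inhibitors. Its signals there were 3.6, 3.1 and 3.6 in CsUBC13-OE, against 14.8, 14.4 and 12.9 in Col-0, and with Fe 3.2, 5.3 and 2.0 in CsUBC13-OE, against 1.3, 2.9 and 2.1 in Col-0. The log2 difference of AT1G09360 was -0.63 without Fe (adjusted p = 0.046), 0.10 with Fe and -0.26 in the average. All these signals are low. In the 12 arrays alone the adjusted p without Fe was 0.225 with no block and 0.424 with a block on the replicate number. Leaving out any 1 array ended the call (adjusted p 0.0568 to 0.245), except for CsUBC13-OE with Fe replicate 2, without which it was 0.0290.

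**Figure D3:**
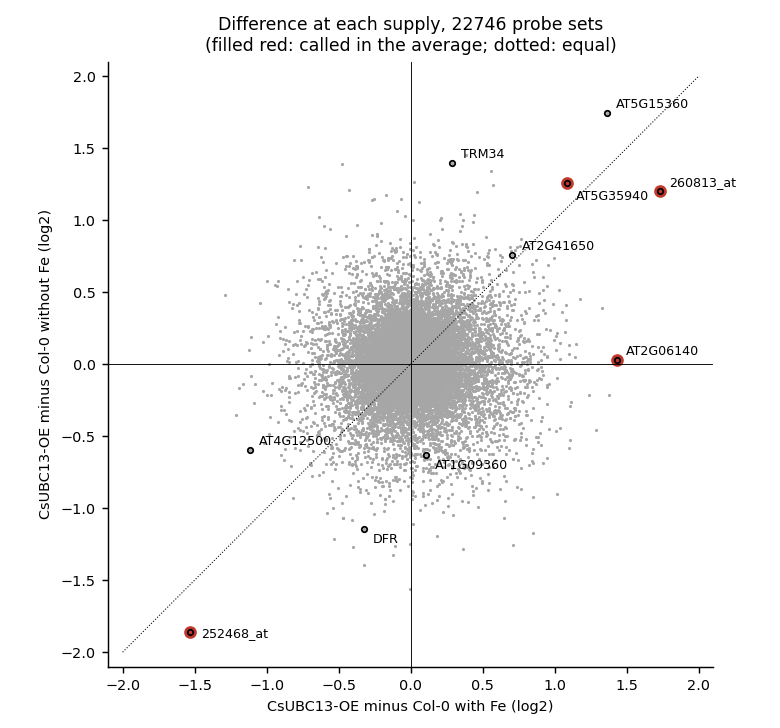
The log2 difference of CsUBC13-OE from Col-0 with Fe (x axis) and without Fe (y axis) for 22746 probe sets, which rest on separate arrays. Red points were called in the average; on the dotted line both differences are equal, and AT2G06140 lies on the horizontal axis.

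Genes that came close to the threshold are given as values that did not pass. AT5G15360, whose function is not given here, had the highest average difference of all probe sets, 1.55 (95% interval 1.01 to 2.09, adjusted p = 0.0943). Its signals were 116.9, 162.3 and 64.9 in CsUBC13-OE with Fe, against 38.2, 38.6 and 22.1 in Col-0, and 109.7, 120.5 and 108.9 without Fe, against 12.1, 24.6 and 34.2 in Col-0. All 6 CsUBC13-OE arrays of AT5G15360 lay above all 6 Col-0 arrays. It was called with quantile normalization (adjusted p = 0.0447), with a pseudocount of 64 (0.00771), with trended, robust moderation (0.0174), with array weights (0.0405) and without CsUBC13-OE with Fe replicate 3 (0.0475). It was not called by limma with a pseudocount of 1 (adjusted p = 0.750) or in the 12 arrays alone (0.061 with no block, 0.147 with a block on the replicate number). Of the 12 fits with 1 array left out, only 1 called it. In CsUBC13-OE AT5G15360 exceeded ubc13A by 1.64 (adjusted p = 0.00764), whereas ubc13A minus Col-0 was -0.09. The comparison with ubc13A reuses the CsUBC13-OE arrays by which AT5G15360 was picked, so it is no separate support.

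AT2G41650 was bright and nearly the same at both supplies. Its signals were 1197.5, 830.9 and 1279.8 in CsUBC13-OE with Fe, against 640.9, 670.1 and 663.5 in Col-0. Without Fe they were 1354.8, 1160.0 and 1163.8 in CsUBC13-OE, against 688.7, 783.8 and 683.6 in Col-0. The groups did not overlap. The difference of AT2G41650 was 0.73 in the average (adjusted p = 0.158), 0.71 with Fe and 0.76 without Fe. Without CsUBC13-OE with Fe replicate 2, the array that stands apart, it was 0.83 (adjusted p = 0.0273). It was also called without the dimmest 40% of probe sets (0.0366), with a pseudocount of 64 (0.0447), with trended, robust moderation (0.0133) and with array weights (0.0101). It was not called by limma in the 12 arrays alone (adjusted p = 0.123 with no block, 0.384 with a block on the replicate number). Of the 12 fits with 1 array left out, only 1 called it, that without CsUBC13-OE with Fe replicate 2. TRM34, of the TON1-recruiting family, several members of which bind microtubules, differed by 0.84 in the average (adjusted p = 0.301). The signal of TRM34 without Fe averaged 34.3 ± 19.0 in CsUBC13-OE, against 2.3 ± 1.1 in Col-0 (SD, n = 3 each), and with Fe the groups overlapped.

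The remaining 5 genes with the smallest p among higher differences had adjusted p of 0.998. They were AT2G43580 of the chitinase family (0.69), ATSPO11-1 (0.56), whose product cuts DNA to start meiotic recombination, the pseudogene AT5G35310 (0.82), AT1G62310 of the JmjC-domain histone demethylase family (0.41) and AT5G28090 (0.91). ATSPO11-1 gave 47.1 to 84.7 on CsUBC13-OE arrays and 20.4 to 43.8 on Col-0 arrays, so the genotypes were apart at a low level. AT1G62310 gave 97.3 to 153.6 in CsUBC13-OE, against 81.3 to 113.3 in Col-0. Within each supply its genotypes were apart, and they overlapped only with both supplies pooled.

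Of the 10 genes with the smallest p among lower differences none was called in the average. AT5G19890, of the class III peroxidases that act in the cell wall, was the brightest, with 1900.8, 1837.1 and 1831.1 in CsUBC13-OE with Fe, against 2443.3, 2440.0 and 2620.5 in Col-0. Without Fe it gave 2383.7, 2683.8 and 2210.2 in CsUBC13-OE, against 3020.8, 3719.6 and 3238.6 in Col-0. Within each supply the genotypes did not overlap. Its average difference was -0.44 (95% interval -0.61 to -0.27, adjusted p = 0.199), and with trended, robust moderation it was called (adjusted p = 0.0297). It was not called by limma in the 12 arrays alone (adjusted p = 0.376), nor in any of the 12 fits with 1 array left out. UGT71C3, a glycosyltransferase of small molecules, had signals of 471.7, 486.0 and 530.4 in CsUBC13-OE with Fe, against 667.8, 658.2 and 572.5 in Col-0, with an average difference of -0.37. AT4G12500, of the lipid transfer protein family, gave 409.3, 146.5 and 311.3 in CsUBC13-OE with Fe, against 859.3, 593.4 and 414.5 in Col-0, and -0.86 in the average. LUP5, an oxidosqualene cyclase of triterpene synthesis, stood at -0.53. AT5G58120, a TIR-NBS-LRR gene of the class of disease resistance receptors, stood at -0.87 with signals of at most 5.7 in CsUBC13-OE and of 12.8 to 28.2 in Col-0. The pseudogenes AT1G21020 (-0.69) and AT5G35710 (-0.41), AT3G26922 (-0.39), AT4G02485 (-0.41) and AT1G09360 complete the group. AT4G33720, of the CAP family of secreted proteins, was chosen after its values were seen. Its average difference was -0.86, made of -0.33 with Fe and -1.39 without Fe, and was not called.

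The Arabidopsis UBC13 transcripts themselves did not pass the test. UBC35 and UBC36, the UBC13A and UBC13B genes, share the probe set 264303_s_at, and the arrays cannot say which of them a signal came from. In CsUBC13-OE it gave 3895.8, 4312.8 and 4058.0 with Fe and 3953.1, 4013.1 and 4731.9 without Fe. In Col-0 it gave 3953.4, 3241.9 and 4150.7 with Fe and 4159.0, 3411.6 and 3273.4 without Fe, overlapping CsUBC13-OE at either supply. The average difference was 0.17 (95% interval -0.05 to 0.39, adjusted p = 0.998). Whether the cucumber transcript binds to these probes is not known from the files. Among other E2 enzymes and ubiquitin genes 14 were measured, with a median of 0.01 and a range from -0.08 (UBC18) to 0.22 (UBC31, a dim gene with mean signals of at most 11.9 in these groups), against a median of 0.01 over all probe sets. None was called, and none had an unadjusted p under 0.05. UBC29 and UBC30, relatives of the UBC8 group that build chains with many ligases, differed by -0.07 and 0.04, and UBC32, an E2 enzyme of the endoplasmic reticulum, by 0.05. The ligases PUB22 and PUB23, which act in immune and drought responses, differed by -0.03 and 0.00. Of 12 ubiquitin-specific proteases, which remove ubiquitin, none was called. At an unadjusted p under 0.05 stood UBP20 (0.28), UBP24 (-0.18) and UBP21 (-0.29). Of 10 genes of endosomal sorting, where lysine 63 chains act, VPS60.2 stood at 0.21 (unadjusted p = 0.0383) and the rest between -0.15 and 0.12. For scale, 3.94% of all genes with a probe set of their own had an unadjusted p under 0.05, and 0.0176% of all probe sets were called.

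Of the Fe homeostasis genes measured, none passed the test between the genotypes. Over all probe sets 0.0176% were called in the average, so no call among a few genes says little about them. The basic helix-loop-helix regulator BHLH101 differed by 0.01, with a wide 95% interval of -0.61 to 0.64. PYE, which represses Fe transport and storage genes, differed by 0.10. ILR3, a partner of PYE, differed by 0.17 (95% interval 0.03 to 0.32, unadjusted p = 0.0225, adjusted p = 0.998). Its signals were 1479.9 to 1670.8 in CsUBC13-OE with Fe, against 1340.3 to 1501.5 in Col-0, and 1766.4 to 2119.2 without Fe, against 1676.7 to 1740.9 in Col-0. The groups of ILR3 overlapped with Fe and were apart without it. bHLH34 and bHLH104, regulators upstream of the Fe deficiency response, differed by -0.07 and -0.06.

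The peptide IMA1, which switches the Fe deficiency response on, had signals of 350.6, 200.9 and 198.2 in CsUBC13-OE with Fe, against 321.2, 250.7 and 190.7 in Col-0. Without Fe it reached 3810.1, 3160.2 and 3336.5 in CsUBC13-OE, against 2910.1, 3300.7 and 3249.8 in Col-0. The supply thus separated the arrays of IMA1 and the genotype did not. Its average difference was 0.04 (95% interval -0.35 to 0.43). The ubiquitin ligases BTSL1 and BTSL2, which turn the response down, differed by 0.08 and -0.02, and MTP8, a manganese transporter induced by low Fe, by -0.18. Among coumarin genes, whose products mobilise Fe outside the root, the synthesis genes F6'H1, COSY and S8H differed by -0.14, -0.05 and 0.16. BGLU42, a glucosidase that acts before export of the coumarins, differed by -0.04. CYP71B5, a cytochrome P450 not known here to act on coumarins, differed by -0.07. F6'H1 gave 16274.1, 15687.4 and 19208.2 in CsUBC13-OE without Fe, against 16721.9, 18088.2 and 21998.2 in Col-0. None of these genes was called in the average, at either supply or between supplies. Over all probe sets the shares called were 0.0176% in the average, 0.0132% at each supply and 0.0044% between supplies. At such shares, no call says little about these genes.

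**Figure D4:**
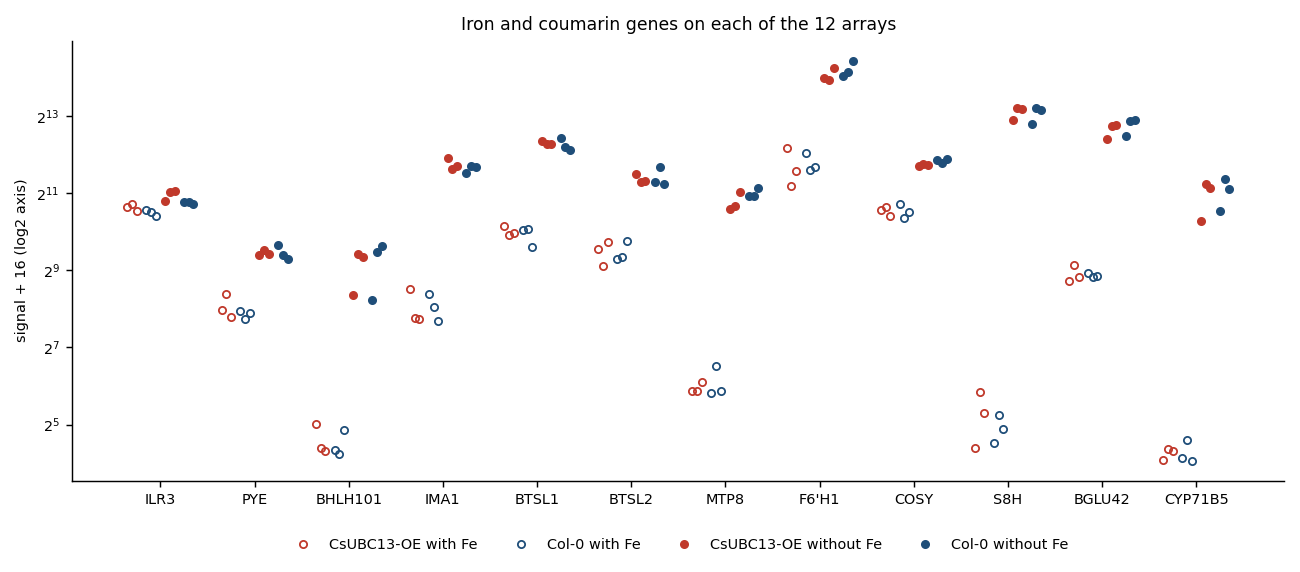
Signal + 16 on a log2 axis for 12 genes on each of the 12 arrays: genes of Fe homeostasis and coumarins, and CYP71B5. CsUBC13-OE is in red and Col-0 in blue, with open circles with Fe and filled circles without Fe. For each gene the red and blue points of a supply overlap or nearly so, and filled points lie above open ones for most genes.

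A wider set of Fe-responsive probe sets was taken from the ubc13A arrays alone, which neither side of the comparison uses: those called by limma and changed at least 2-fold between the supplies in ubc13A. Of 200 that were higher without Fe in ubc13A (0.879% of all probe sets), none was called between CsUBC13-OE and Col-0. Their median difference was 0.01 in the average (quartiles -0.07 and 0.10), 0.00 with Fe and 0.03 without Fe, and their median response to Fe removal was 1.59 in CsUBC13-OE, against 1.53 in Col-0. Of 84 that were lower (0.369%), none was called either. Their median difference was 0.00 in the average, 0.02 with Fe and -0.03 without Fe, and their median response was -1.39 in CsUBC13-OE, against -1.35 in Col-0. Over all probe sets the median difference was 0.01 and 0.0176% were called in the average. At so low a share, no call among 200 or 84 probe sets says little about them. The choice was made with earlier results of these arrays known.

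Gene lists for pathways that UBC13 or Fe supply touch held 84 distinct genes with a probe set of their own, in 22 of 24 lists. None of the 84 was called, which says little, since 0.0176% of all probe sets were. Of all genes with a probe set of their own, 3.94% had an unadjusted p under 0.05. The lists have 685 entries, so most of their genes were not measured by a named probe set of their own; of 38 genes of Fe uptake 5 were, and of 46 root hair genes 5. Those at an unadjusted p under 0.05 were ILR3, given above, and UF3GT, a glycosyltransferase that decorates anthocyanins (-0.56, 95% interval -1.01 to -0.10, unadjusted p = 0.0192). UF3GT gave 106.3, 118.8 and 146.0 in CsUBC13-OE with Fe, against 149.8, 290.4 and 162.9 in Col-0, and 49.6, 95.6 and 86.6 without Fe, against 76.5, 145.6 and 132.9 in Col-0. The groups of UF3GT were apart with Fe and overlapped without it. DFR, an earlier enzyme of anthocyanin synthesis, differed by -0.73 with an interval of -1.52 to 0.05. Its CsUBC13-OE arrays overlapped those of Col-0 at either supply. Without Fe, a block on the replicate number left UF3GT and DFR at adjusted p of 0.762 and 0.783 within the 6 arrays. For 81 of the 84 genes the 95% interval lay within 2-fold in either direction; UF3GT, DFR and THI2.1, a thionin induced by jasmonate (0.54, up to 1.22), are the exceptions.

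The lists of root hairs, cell division and auxin had medians near that of all genes, 0.01. The 5 root hair genes had a median of -0.03, from -0.21 (XTH26, a cell wall enzyme) to 0.23 (TRY, a regulator of epidermal cell fate). Among them EXPA7 stood at -0.03 and SCN1, which restricts where hairs form, at 0.06. The 3 genes of cell division had a median of 0.00, with the Aurora kinases AUR1 and AUR2 at 0.08 and -0.13. The 8 auxin genes ran from -0.04 to 0.06, with a median of 0.04. Of the DNA damage genes POLH, a translesion polymerase, stood at 0.34 (95% interval -0.06 to 0.75), RAD5, whose yeast counterpart extends lysine 63 chains on PCNA, at -0.37 (-0.74 to 0.01) and ATLIG4, a DNA ligase, at 0.01. The 5 photosynthesis genes had a median of -0.01 in the average, 0.13 with Fe and -0.22 without Fe. None of them was called, where 0.0176% of all probe sets were in the average. All 4 genes of abscisic acid and drought were below 0, from -0.40 (LEA) to -0.03 (COR47), with a median of -0.28. Of all probe sets 52.1% were higher in CsUBC13-OE. None of the 4 had an unadjusted p under 0.05, where 3.94% of all genes with a probe set of their own did.

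Families added later, 18 lists with 269 genes, held none that was called, where 0.0176% of all probe sets were. They held 14 at an unadjusted p under 0.05. That is 5.2%, against 526 (3.94%) of the 13356 genes with a probe set of their own. The medians of the larger ones were -0.04 for 47 UDP-glycosyltransferases, -0.09 for 29 serine carboxypeptidase-like genes, 0.01 for 24 cytochrome P450s and -0.02 for 18 expansins.

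**Figure D5:**
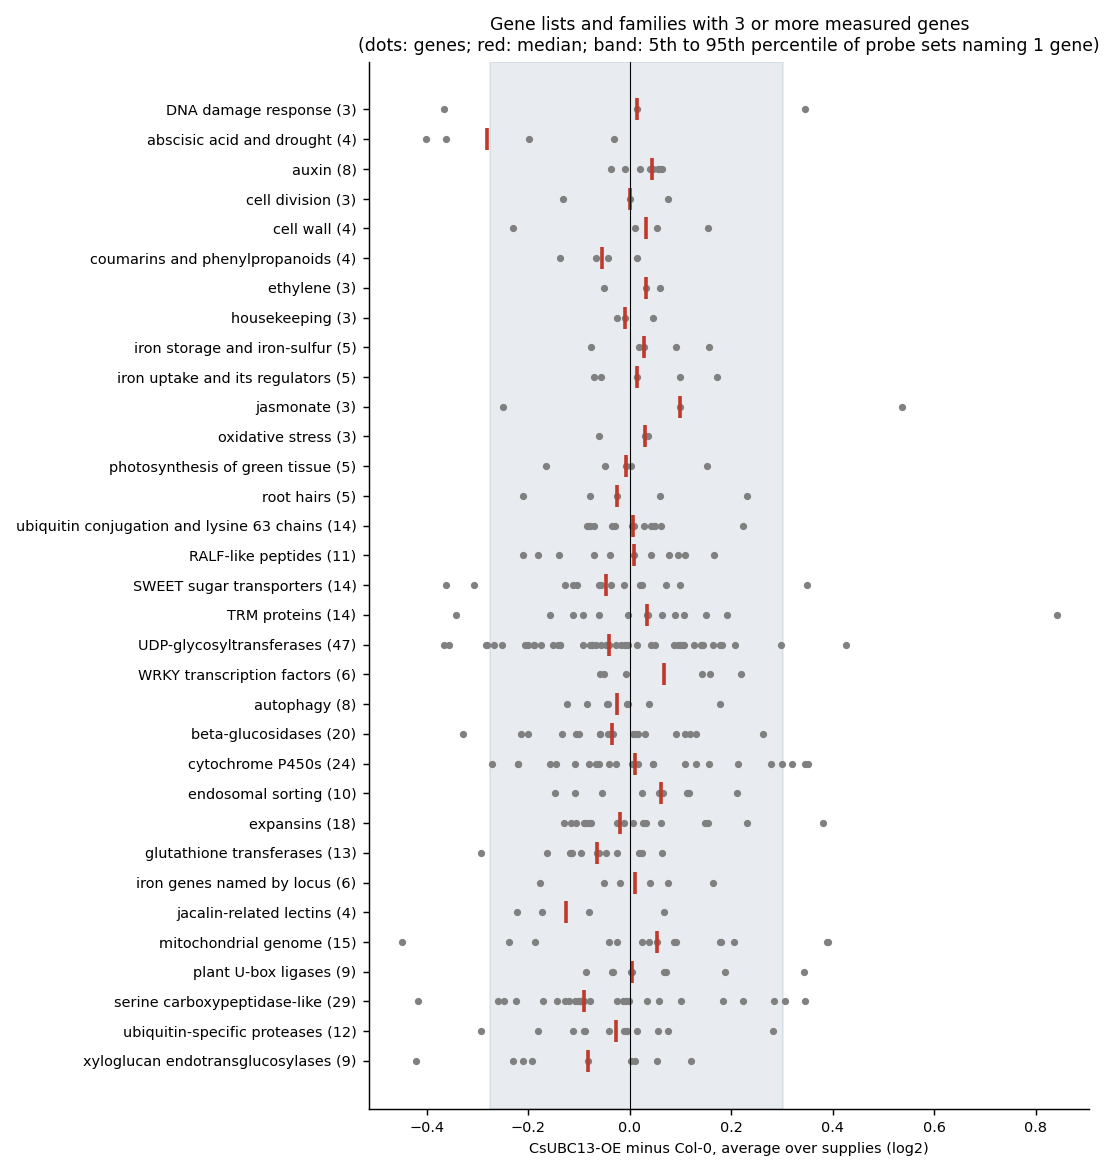
The log2 difference of CsUBC13-OE from Col-0 averaged over supplies (x axis) for every measured gene (dots) of the 33 lists and families with 3 or more genes, with the median in red. The band from -0.27 to 0.30 holds the 5th to the 95th percentile of probe sets that name 1 gene; TRM34 lies farthest from it, at 0.84.

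The size of the differences over the whole array sets these values in place. The average differences ran from -0.26 to 0.29 between the 5th and the 95th percentile, with a median SE of 0.13. In 22061 probe sets (97.0%) the 95% interval lay within 2-fold either way, and in 17093 (75.1%) within 1.5-fold. Among the 14173 probe sets with a mean signal of 100 or more these shares were 99.6% and 95.5%. A difference of 2-fold or more was measured in 4 probe sets, AT5G15360, 260813_at, AT5G35940 and 252468_at. Across probe sets the differences at the supplies, which come from separate arrays, correlated weakly (Pearson r = 0.046 over all, 0.15 over the brighter ones), and probe sets are not independent replicates.

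Ranks of the signals were counted as well. All 6 CsUBC13-OE arrays lay above all 6 Col-0 arrays in 18 probe sets (0.0791%) and below them in 14 (0.0615%). Of these 32, 21 name 1 gene, 13 have a mean signal of 100 or more, and 3 were called. Judged within each supply, groups stood apart in the same direction at both supplies in 95 probe sets (0.418%), which include these 32. They were 50 with CsUBC13-OE above (0.22%) and 45 with it below (0.198%). With Fe alone the 3 CsUBC13-OE arrays lay above the 3 Col-0 arrays in 3.48% of probe sets and below them in 3.11%, and without Fe alone in 4.72% and 4.18%. Set against ubc13A, 173 probe sets were called in CsUBC13-OE (0.761%), and ubc13A differed from Col-0 in 165 (0.725%). These 2 counts share arrays with the comparison of CsUBC13-OE with Col-0 and with each other.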

How the data were processed

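Root RNA was labelled with biotin and hybridised to single-colour Affymetrix ATH1 arrays, per the labels' protocols. The authors deposited a linear signal intensity for each probe set on each array. The software behind these values is not given in the sources used, and the 12 arrays compared had nearly equal trimmed means (495.5 to 496.2) with medians from 189.7 to 205.4. No further scaling was done. Of 22746 probe sets, 13513 name 1 gene, 503 several and 8730 none in the platform annotation, and 13436 matched RefSeq (TAIR10.1) by Entrez number. Families of genes known by locus, and the names IMA1, BTSL1, BTSL2, MTP8, S8H and COSY, are background knowledge.

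All 18 arrays were fitted by 6 group means on log2(signal + 16) with limma 3.58.1 in R 4.3.3 (12 residual degrees of freedom), and p-values were adjusted by Benjamini-Hochberg. Replicates limit the precision, since arrays have no read depth. The genes named were those called, filled up to the 10 with the smallest p each way, up to 2 unnamed called probe sets each way, up to 4 members of each list by p, and the UBC35 and UBC36 probe set. Further list members are given to show a family's range. A gene is represented by its brightest probe set, and 3 list symbols borne by other genes were set aside. The members and lists were chosen with earlier results of these data known.

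On simulated data with 200 of 22746 probe sets changed, the average comparison called 50.7% of the 1.5-fold changes, 83.6% of those of 2-fold and 98.5% of those of 4-fold, with 13 false calls. The simulated noise was normal and independent between arrays. With 200 planted changes the Benjamini-Hochberg cutoff on p is also laxer than in the real comparison, which had 4 calls. These shares can therefore overstate what the real comparison was able to call. The deviations of same-numbered CsUBC13-OE and Col-0 arrays from their group means correlated at 0.30, 0.20 and 0.11 without Fe. With Fe they correlated at 0.29, -0.03 and -0.02, and there CsUBC13-OE replicates 2 and 3 correlated best with Col-0 replicates 3 and 2 (0.141 and 0.135). The labels do not say whether the numbers mark pairs or batches, and this was not tested. A block over the 12 arrays treats the numbers as alike at both supplies, which these values do not settle. No 2 arrays were identical.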

Additional observations from a re-analysis of the deposited data

Results flagged for a closer look

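AT2G06140, a pseudogene, differed between the supplies in its difference between CsUBC13-OE and Col-0, by -1.40 on the log2 scale (without Fe minus with Fe, adjusted p = 0.021 by limma). It was the only probe set called in the test of that difference, of 22746 tested. The signals behind it were 28.5 to 36.7 in CsUBC13-OE with Fe and at most 5.2 in the other groups of these genotypes. Leaving out Col-0 without Fe replicate 3 kept the call (adjusted p = 0.0476), and leaving out any of the other 11 arrays ended it (adjusted p 0.0524 to 0.113). In the 12 arrays alone the adjusted p was 0.0755 with no block and 0.171 with a block on the replicate number.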

How the results depend on the processing

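The 4 probe sets called in the average became 2 with a pseudocount of 1, 7 with array weights and 2 in a test against a 1.2-fold change, and ranged from 3 to 5 with 1 array left out. They numbered 4 to 6 under quantile normalization (5), median centring (4), a filter on the dimmest 40% (4), a pseudocount of 64 (5) and trended, robust moderation (6), and 3 in a fit of the 12 arrays alone, with or without the replicate block. The probe sets 260813_at and 252468_at were called in the average under each of these. With Fe, 3 calls ranged from 3 to 4 with 1 array left out; without Fe, 3 calls ranged from 2 to 3 and became 5 with array weights. A replicate block within the 6 arrays of a supply, added after seeing the data, left 0 calls with Fe and 0 without Fe by limma, with few residual degrees of freedom; 743 and 1375 probe sets there had an unadjusted p under 0.05. The 1 call of the difference between supplies became 0 with the dimmest 40% left out, with either other pseudocount, with trended, robust moderation, in the 12 arrays alone, with the replicate block and against a 1.2-fold change, and ranged from 0 to 1 with 1 array left out; the cause was not tested. Without the array that stands apart and with quantile normalization, also added after seeing the data, 6 were called in the average. The calls of AT5G35940 and, without Fe, of AT1G09360 ended in the 12 arrays alone, with or without the replicate block. No value reversed among those that were called. With 3 arrays a group, changes of 1.5-fold or less in dim probe sets could be missed, and larger or brighter ones too. AT5G15360 at 1.55 and the bright AT2G41650 at 0.73 did not pass in the average (adjusted p = 0.0943 and 0.158 by limma).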
